A study of Brassica napus with 9 samples.

Results

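Transcript levels of 8 genes around galactinol, raffinose and myo-inositol were followed in leaves of *Brassica napus* (rapeseed) by RNA-seq. The genes were taken by their identifiers out of the 104592 genes of the files, and comprised 2 identifiers of *GOLS3* (BnaA09g48480D and BnaC08g50010D), 2 of *RFS5* (BnaA04g10260D and BnaC04g56100D), and 1 each of *AGAL1* (BnaC02g01150D), *GAA* (BnaA03g03490D), *IMPL1* (BnaA09g25360D) and *MIOX2* (BnaC07g01430D). The study had named these genes because they changed in the same libraries, so the number of them that changed is a description of the genes chosen and carries no independent weight. In D + F the soil, held at 80% of field capacity at first, was dried to 30% by the day of sampling, and the leaves were sprayed with fullerol, a hydroxylated fullerene that dissolves in water, at 100 mg/L. D plants had the same drying and a water spray, and CK plants were kept at 80% throughout and sprayed with water. All plants were seedlings of the cultivar Zhongshuang 11, labelled as wild type and grown 4 to a pot. The sprays started on day 21 after sowing and leaf 3 was taken on day 25, with 3 libraries in each group. Whether a library held 1 plant or several is not stated in the sources used here, and p-values measure the spread between these libraries.

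Galactinol synthase joins galactose from UDP-galactose to myo-inositol and makes galactinol, the galactose donor from which raffinose synthase builds raffinose on sucrose. Galactinol and raffinose are soluble carbohydrates that many plants store under drought, cold and salt, and they are known as osmoprotectants and scavengers of hydroxyl radicals. α-Galactosidases take the galactose off again. Myo-inositol, used in the first step and set free in the second, is supplied by inositol monophosphatases and removed by myo-inositol oxygenase, which opens the ring to glucuronate. *B. napus* carries an A subgenome from *B. rapa* and a C subgenome from *B. oleracea*, named by the letter after Bna in an identifier, so most genes have at least 1 close copy.

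The deposited unit was FPKM, the read pairs on a gene divided by its length and by the size of the library, which allows levels of different genes to be compared. The libraries rested on 21939148 to 26042002 read pairs, at which 3 read pairs on a gene of 1 kilobase give 0.115 to 0.137 FPKM. Correlations across genes between libraries of a group lay between 0.906 and 0.972. *HPR* (BnaA07g24840D), a photorespiration gene of green leaves, was at 171 to 232 FPKM in D + F, 239 to 275 FPKM in D and 75.6 to 132 FPKM in CK. Limma was run on log2(FPKM + 1) of the genes that exceeded 1 FPKM in 3 or more of the 9 libraries, and those with a Benjamini-Hochberg adjusted p under 0.05 over all 50626 genes tested are called DEGs. The comparisons were D vs. CK (the drought contrast), D + F with CK (the combined contrast) and D + F with D (the fullerol contrast). *MIOX2* did not pass this filter, and *GOLS3* BnaC08g50010D passed it through the CK libraries alone. Adjusted p-values below are from limma, and the log2 fold changes understate changes of genes near or under 1 FPKM. Fewer cells of a type and less RNA per cell cannot be told apart in these bulk samples.

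The A copy of *GOLS3* was the member with the largest log2 fold changes against CK. The level of this copy, BnaA09g48480D, was 1.59, 1.04 and 1.19 FPKM in D + F, 0.0425, 0.175 and 0 FPKM in D, and 16.6, 21.5 and 47.3 FPKM in CK. These values stood for 36, 27 and 27 read pairs in D + F, 1, 4 and 0 in D, and 390, 506 and 1030 in CK. The groups did not overlap in any pair, with D lowest, D + F between and CK highest, and CK 3 was the highest library.

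In D vs. CK, the A copy of *GOLS3* was down-regulated, with a log2 fold change of -4.64 (SE 0.35, adjusted p = 0.000298), and without CK 3 it was -4.22 (adjusted p = 0.000183). The read pairs summed over the groups were 5 in D and 1926 in CK, and the rate in CK was 390 times that in D (95% exact interval 167 to 1201, counting error only), or 1307 times without D 2 (234 to 51662). In D + F vs. CK it was down-regulated as well, with a log2 fold change of -3.56 (SE 0.36, adjusted p = 0.00197), with 90 read pairs in D + F and a rate in CK 22.2 times as high (17.9 to 27.7). Without CK 3 that rate was 15.1 times as high (12.1 to 19.0), below the interval with all libraries.

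In D + F vs. D, the A copy of *GOLS3* was up-regulated, with a log2 fold change of 1.08 (SE 0.16, adjusted p = 0.0374) and a read rate in D + F 17.6 times that in D (95% exact interval 7.26 to 55.4). Of the 5 read pairs in D, 4 were in D 2, without which the ratio was 59.0 (10.3 to 2354). All 3 D + F libraries were higher than all 3 D libraries. The call held in 4 of 16 alternatives. It was lost with any 1 library left out, at adjusted p-values from 0.0540 without D + F 1 to 0.129 without D 1. Other losses were without the filter on low values (0.0756), at a mean of at least 5 FPKM (0.0955) and with quantile normalization (0.0560). The call was also lost with the replicate numbers as a block (0.127), in 1 fit on all 9 libraries (0.160) and with limma's voom on the read pairs (0.0513). The mean in D + F was 1.27 ± 0.283 FPKM, against 28.5 ± 16.5 FPKM in CK (SD, n = 3 each).

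The C copy of *GOLS3*, BnaC08g50010D, was at 0.0442, 0 and 0.0440 FPKM in D + F, at 0, 0 and 0.0863 FPKM in D, and at 1.02, 1.74 and 4.22 FPKM in CK. The D + F and D libraries held 0 to 2 read pairs each and the CK libraries 24, 41 and 92, so CK stood above both other groups without overlap. Because it was tested only through the CK libraries, a lower level in the other groups was favoured by the filter, and its calls are given as a description. The log2 fold change was -1.58 in the drought contrast (SE 0.34, adjusted p = 0.0122) and -1.58 in the combined contrast (SE 0.34, adjusted p = 0.0208), and in the combined contrast the adjusted p passed 0.05 when CK 2 (adjusted p = 0.0659), D + F 2 (0.0777) or D + F 3 (0.0671) was left out. The read rate in CK was 79.4 times that in D (95% exact interval 21.6 to 661) and 81.3 times that in D + F (22.1 to 677). With 2 read pairs in each of D + F and D, a difference between them was not detectable at this depth.

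**Figure D1:**
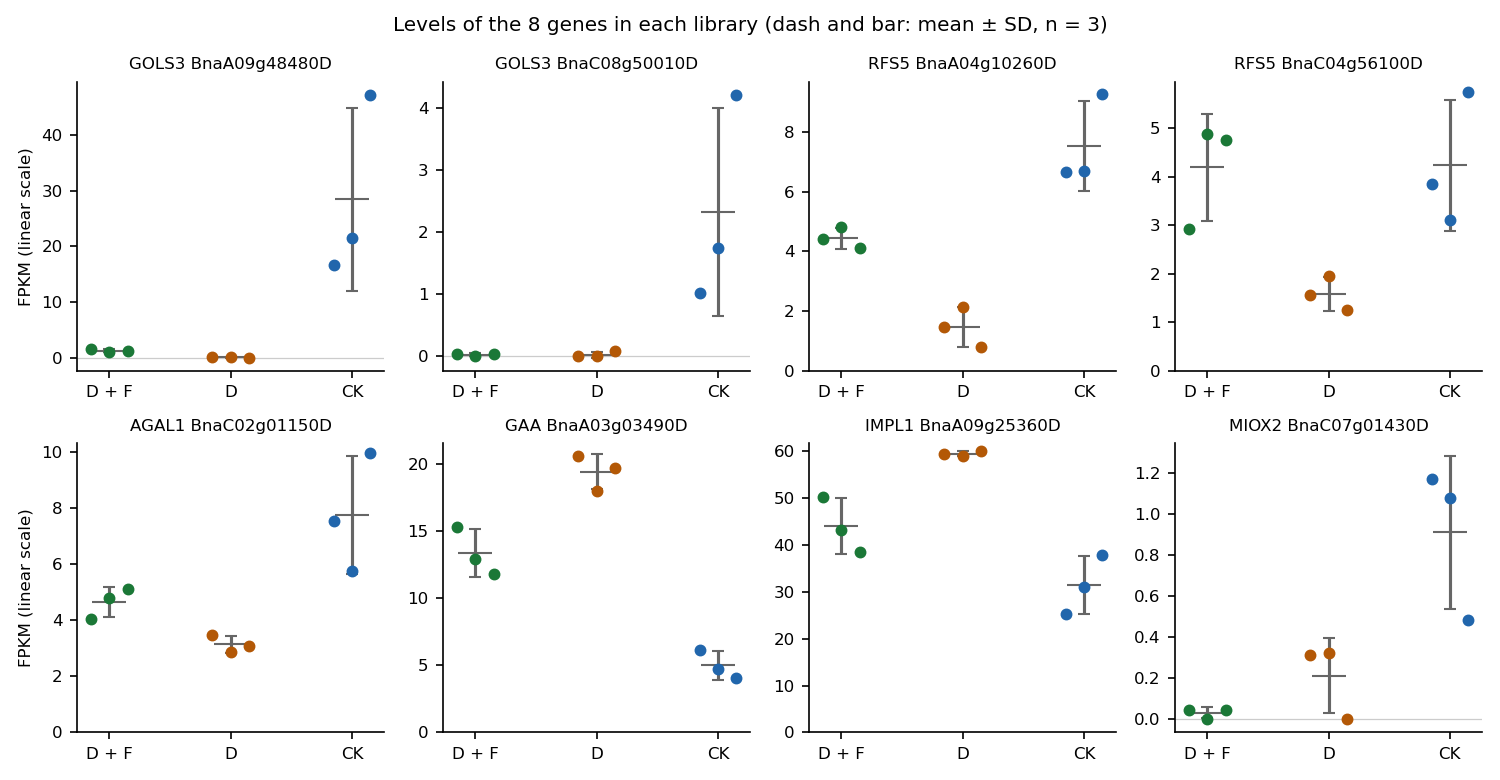
FPKM of each of the 8 genes (vertical axes, linear scale) in D + F, D and CK (horizontal axes), with a point for each library and a dash and bar for the mean ± SD of 3 libraries. Both *GOLS3* copies stand at or near 0 outside CK, both *RFS5* copies and *AGAL1* are lowest in D, and *GAA* and *IMPL1* are highest in D, with *IMPL1* between 58.9 and 59.96 FPKM in its 3 libraries.

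Both copies of *GOLS3* have a coding length of 993 bases and may share reads, and how reads that match both were counted is not given in the sources used here. Their sum does not depend on how shared reads were divided between them, provided such reads were counted on either copy. Shared reads left uncounted would be missing from the sum as well. It was 1.63, 1.04 and 1.23 FPKM in D + F, 0.0425, 0.175 and 0.0863 FPKM in D, and 17.7, 23.2 and 51.5 FPKM in CK. The mean log2 difference of the sum was -8.32 in the drought contrast (SE 0.75), -4.43 in the combined contrast (SE 0.50) and 3.89 in the fullerol contrast (SE 0.62). The groups did not overlap, and each comparison gave the smallest two-sided p that an exact permutation of 3 against 3 libraries allows, 0.1. In CK the A copy held 91.8% to 94.2% of the sum, and in D + F it held 96.4% to 100% on far fewer reads.

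*RFS5* encodes a raffinose synthase, the enzyme of this family that makes most leaf raffinose under abiotic stress in *Arabidopsis*. Its A copy, BnaA04g10260D, was at 4.41, 4.80 and 4.10 FPKM in D + F, 1.47, 2.12 and 0.808 FPKM in D, and 6.64, 6.69 and 9.26 FPKM in CK. The order was that of *GOLS3*, with D lowest, D + F between and CK highest, and no pair of groups overlapped.

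The A copy of *RFS5* was down-regulated in D vs. CK, with a log2 fold change of -1.81 (SE 0.24, adjusted p = 0.00202), and was a DEG in each of the 15 alternatives. In D + F vs. CK it was down-regulated too, at -0.64 (SE 0.17, adjusted p = 0.0446). That call was lost with any 1 library left out, at adjusted p-values from 0.0612 without CK 1 to 0.125 without D + F 3. In the fullerol contrast the log2 fold change was 1.17 (SE 0.21) and missed the threshold at an adjusted p of 0.0558, although 1 fit on all 9 libraries gave 0.0384 and limma's voom on the read pairs gave 0.0473.

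The C copy, BnaC04g56100D, was at 2.93, 4.89 and 4.77 FPKM in D + F, 1.56, 1.95 and 1.25 FPKM in D, and 3.86, 3.11 and 5.74 FPKM in CK. D was again below both other groups, but D + F overlapped CK, and D + F 1 was the lowest of the D + F libraries. It was down-regulated in D vs. CK, at -0.996 (SE 0.22, adjusted p = 0.0143), with an adjusted p of 0.0548 without D 3. In the combined contrast the log2 fold change was -0.0045 (SE 0.25, adjusted p = 0.992), and its sign turned without CK 3 (0.19) and without D + F 1 (0.18). In the fullerol contrast it was 0.99 (SE 0.20, adjusted p = 0.0769), and 1.18 (adjusted p = 0.0444) without D + F 1.

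Both copies of *RFS5* have a coding length of 2334 bases, and their sum was 7.34, 9.69 and 8.86 FPKM in D + F, 3.02, 4.07 and 2.06 FPKM in D, and 10.5, 9.80 and 15.0 FPKM in CK. Every D library was below every D + F library, and every D + F library was below every CK library, if only by 9.69 against 9.80 FPKM at the closest. The mean log2 difference of the sum was -1.98 in the drought contrast (SE 0.34), -0.43 in the combined contrast (SE 0.22) and 1.55 in the fullerol contrast (SE 0.31), each with an exact permutation p of 0.1, the smallest possible. The A copy held 46.2% to 60.1% of the sum in D + F, 39.3% to 52.1% in D and 61.7% to 68.3% in CK, so that its share in CK stood above both other groups (exact permutation p = 0.1 for each). The share is given per length and rests on how reads were divided between the copies.

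*AGAL1* encodes an α-galactosidase, an enzyme that removes terminal galactose from galactosides. BnaC02g01150D was at 4.06, 4.78 and 5.12 FPKM in D + F, 3.47, 2.87 and 3.08 FPKM in D, and 7.53, 5.75 and 9.96 FPKM in CK. The 3 groups did not overlap, again with D lowest and CK highest. It was down-regulated in D vs. CK, at -1.05 (SE 0.20, adjusted p = 0.00802). In the combined contrast the log2 fold change of -0.61 (SE 0.21) missed the threshold (adjusted p = 0.0862), and passed it with median-of-ratios scaling between libraries (0.0416) and in 1 fit on all 9 libraries (0.0430). Between D + F and D it was 0.45 (SE 0.14, adjusted p = 0.174).

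*GAA*, which the study lists as an alpha-glucosidase, and *IMPL1* went the other way. *GAA* BnaA03g03490D was at 15.3, 12.9 and 11.8 FPKM in D + F, 20.5, 18.0 and 19.7 FPKM in D, and 6.16, 4.72 and 4.08 FPKM in CK. D was highest, D + F was between and CK was lowest, with no overlap. *GAA* was up-regulated in the drought contrast, with a log2 fold change of 1.78 (SE 0.17, adjusted p = 0.000618), and in the combined contrast, with 1.27 (SE 0.19, adjusted p = 0.00597), and both calls held in all 16 alternatives. Between D + F and D its change was -0.52 on the log2 scale (SE 0.14, adjusted p = 0.139).

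*IMPL1* encodes a chloroplast enzyme of the inositol monophosphatase family, which releases myo-inositol from its phosphate. BnaA09g25360D had the highest mean of the members in all 3 groups, at 50.2, 43.2 and 38.4 FPKM in D + F, 59.4, 58.9 and 59.96 FPKM in D, and 25.3, 31.1 and 37.7 FPKM in CK. The groups stood in the order of *GAA*, and the lowest D + F library (38.4 FPKM) was close to the highest CK library (37.7 FPKM). *IMPL1* was up-regulated in D vs. CK, with a log2 fold change of 0.92 (SE 0.17, adjusted p = 0.00796). Its log2 fold change was 0.48 in the combined contrast (SE 0.20, adjusted p = 0.137) and -0.43 in the fullerol contrast (SE 0.14, adjusted p = 0.189).

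*MIOX2* encodes a myo-inositol oxygenase and was the member with the fewest reads in CK. BnaC07g01430D was at 0.0467, 0 and 0.0465 FPKM in D + F, 0.315, 0.324 and 0 FPKM in D, and 1.17, 1.08 and 0.485 FPKM in CK, which stood for 1, 0 and 1 read pairs in D + F, 7, 7 and 0 in D, and 26, 24 and 10 in CK. CK was above both other groups, and D + F overlapped D. The read rate in CK was 4.33 times that in D (95% exact interval 2.39 to 8.40) and 31.1 times that in D + F (8.24 to 263), counting error only. It was tested only where the filter on low values was dropped, with adjusted p-values of 0.0761 for the drought contrast, 0.0344 for the combined contrast and 0.444 for the fullerol contrast.

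The order of the members changed between groups. In D + F, *IMPL1* (44.0 ± 5.95 FPKM) and *GAA* (13.3 ± 1.78 FPKM) led, followed by *AGAL1* and both *RFS5* copies, whose means of 4.20 to 4.65 FPKM overlapped, *GOLS3* BnaA09g48480D, and the other 2 genes at about 0.03 FPKM. In D, *IMPL1* (59.4 ± 0.546 FPKM) and *GAA* (19.4 ± 1.30 FPKM) were followed by *AGAL1* (3.14 ± 0.303 FPKM), both *RFS5* copies, whose libraries overlapped, and the other 3 genes under 0.4 FPKM in every library. In CK, *IMPL1* (31.4 ± 6.19 FPKM) and *GOLS3* BnaA09g48480D overlapped at the top, and *AGAL1* and *RFS5* BnaA04g10260D overlapped below them. *GAA* (4.99 ± 1.07 FPKM) then overlapped *RFS5* BnaC04g56100D, which overlapped *GOLS3* BnaC08g50010D, which overlapped *MIOX2* (SD, n = 3 throughout).

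In D vs. CK, each of the 7 members that were tested was a DEG, 2 up-regulated and 5 down-regulated, where 12.3% of all genes tested were up-regulated and 19.7% were down-regulated. Without *GOLS3* BnaC08g50010D, which the filter admitted through CK alone, 6 of 6 were DEGs, 4 of them down-regulated. The libraries of D and CK did not overlap for any of the 7, as was the case for 49.8% of all genes tested. The combined contrast gave 4 DEGs among the members, 1 up-regulated and 3 down-regulated, beside 8.90% and 8.16% of all genes, and the libraries of 6 did not overlap, beside 39.4% of all genes. Without that copy of *GOLS3* 3 of 6 were DEGs in the combined contrast, 2 of them down-regulated. The count of 4 came to 2 when CK 2, D + F 2 or D + F 3 was left out. In the fullerol contrast, 1 member was up-regulated and none was down-regulated, beside 0.808% and 0.338% of all genes, while the libraries of 6 did not overlap, beside 24.8% of all genes. An unadjusted limma p under 0.05 was reached by 7, 6 and 6 of the members in the drought, combined and fullerol contrasts. Of all 50626 genes tested, 22328, 16941 and 8920 reached it.

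The median log2 fold change of the 7 members was -1.05 in the drought contrast, -0.61 in the combined contrast and 0.45 in the fullerol contrast, where the medians of all genes tested were -0.098, 0.037 and 0.14. Without *GOLS3* BnaC08g50010D, which the filter admitted through CK alone, the medians of the members were -1.02, -0.31 and 0.72 in the same order. With median-of-ratios scaling the median of all genes in the fullerol contrast was 0.015. The split of DEGs over all genes then came to 8259 up-regulated and 8676 down-regulated in the drought contrast, against 6248 and 9961 as deposited, and to 281 and 222 in the fullerol contrast, against 409 and 171. Under that scaling *GOLS3* BnaA09g48480D was at 1.04 (adjusted p = 0.0477), *RFS5* at 1.07 and 0.88, *AGAL1* at 0.33, *GAA* at -0.66 and *IMPL1* at -0.58. The 3 contrasts share libraries, and the values of each stand for themselves.

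**Figure D2:**
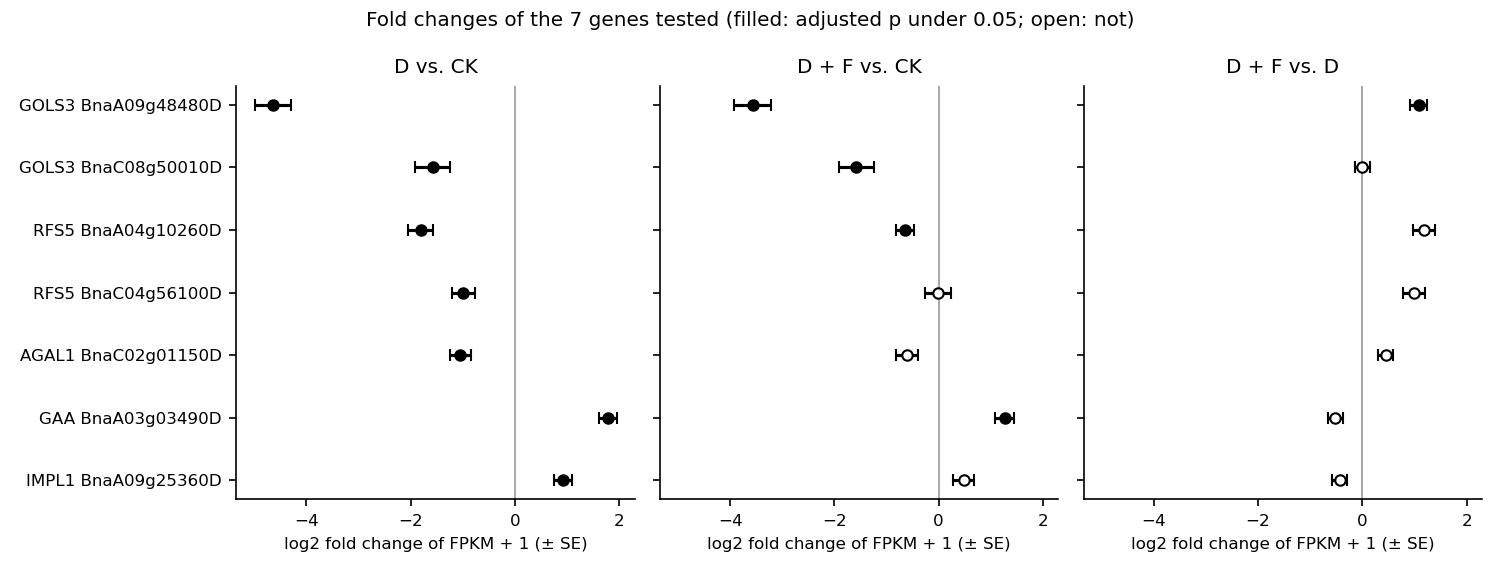
Log2 fold change of FPKM + 1 with its SE (horizontal axes) for the 7 genes tested, with a panel for each of the drought, combined and fullerol contrasts; filled points have an adjusted p under 0.05. All 7 points are filled in the drought contrast, 4 in the combined contrast and 1, *GOLS3* BnaA09g48480D, in the fullerol contrast.

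The study names 11 further identifiers of these families, *GOLS1* and *GOLS2*, *RFS2* and *RFS6*, *GAA2* and *MIOX1*, and all 11 passed the filter. D vs. CK had 8 of them up-regulated and 1 down-regulated, beside 12.3% and 19.7% of all genes tested. In the combined contrast 8 were up-regulated and none was down-regulated, beside 8.90% and 8.16%, and in the fullerol contrast none was up-regulated and 1 was down-regulated, beside 0.808% and 0.338%. The difference between these genes and the 7 members was not tested. Both *GOLS2* identifiers, *GOLS1* and *RFS6* BnaC09g37510D had no CK library above 1 FPKM and passed the filter through the other groups. A higher level outside CK was thus favoured by the filter, and their calls are given as a description. In the combined contrast the count of 8 was 3 without CK 1, D + F 2 or D + F 3, and 4 without CK 2. The 9 calls in the drought contrast came to 6 without D 1 or D 3.

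*GOLS2*, induced by drought and salt in *Arabidopsis*, where *GOLS3* is known as a cold-induced gene, was nearly absent in CK. BnaCnng63310D was at 2.38, 11.7 and 7.47 FPKM in D + F, 12.9, 10.1 and 8.16 FPKM in D, and 0, 0.170 and 0.275 FPKM in CK, and it was up-regulated in the drought contrast by 3.30 (SE 0.20, adjusted p = 0.000139) and in the combined contrast by 2.64 (SE 0.45, adjusted p = 0.00931). BnaA09g15290D was at 1.77, 7.77 and 8.97 FPKM in D + F, 8.93, 11.2 and 4.14 FPKM in D, and 0.213, 0.680 and 0.505 FPKM in CK, and it was up-regulated in the drought contrast (adjusted p = 0.00182) and in the combined contrast (0.0235). The call of BnaA09g15290D in the combined contrast was lost without CK 1 (0.0562), CK 2 (0.0702), D + F 2 (0.0917) or D + F 3 (0.0805). D + F 1 was the lowest D + F library for both, and D + F overlapped D. *GOLS1* stayed low, with its only identifier here at 0.944 to 1.32 FPKM in D + F, 0.640 to 1.52 FPKM in D and 0.0830 to 0.448 FPKM in CK. Its log2 fold change was 0.69 in D vs. CK (SE 0.22, adjusted p = 0.0511), and it was up-regulated in the combined contrast at 0.73 (SE 0.20, adjusted p = 0.0437). That call held with CK 3 left out and was lost without any 1 of the other 5 libraries, at adjusted p-values up to 0.156, while the drought contrast passed without CK 3 (0.0445) or D 2 (0.0442).

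The 5 *GOLS* identifiers summed to 6.82, 21.8 and 18.6 FPKM in D + F, 22.9, 22.1 and 13.9 FPKM in D, and 18.2, 24.2 and 52.7 FPKM in CK. *GOLS3* made up 24.0%, 4.79% and 6.61% of the sum in D + F, 0.185%, 0.791% and 0.621% in D, and 97.2%, 96.1% and 97.7% in CK. *GOLS2* made up 60.9%, 89.2% and 88.3% in D + F, 95.1%, 96.3% and 88.5% in D, and 1.17%, 3.52% and 1.48% in CK. So the summed levels of the groups overlapped, while nearly all of the sum lay on *GOLS3* in CK and most of it on *GOLS2* in D and D + F.

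**Figure D3:**
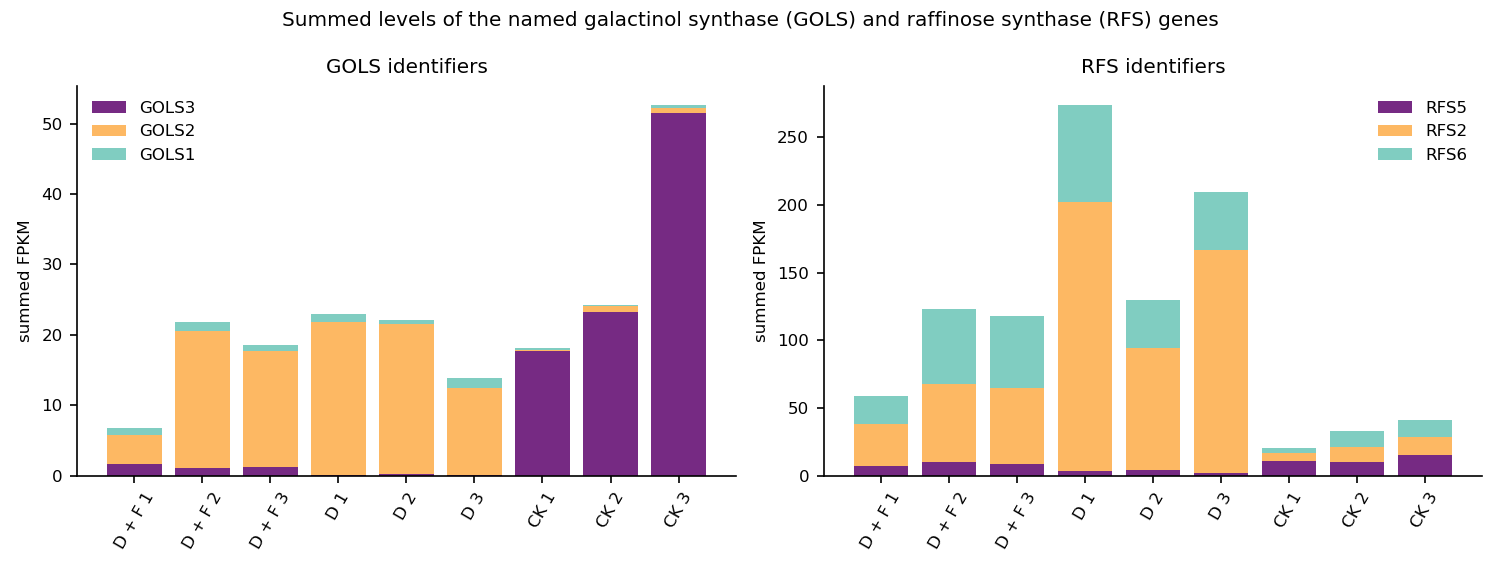
Summed FPKM (vertical axes, starting at 0) of the *GOLS* and *RFS* identifiers named by the study in each library, stacked by gene, with the D + F libraries at the left, D in the middle and CK at the right. *GOLS3* fills at least 96.1% of the *GOLS* bars in CK and at most 0.791% in D, and *RFS5* fills 30.0% to 51.2% of the *RFS* bars in CK and at most 3.15% in D. The *RFS* bars include *RFS2*, in *Arabidopsis* an alkaline α-galactosidase, and so do not give a level of raffinose synthase.

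*RFS2*, in *Arabidopsis* an alkaline α-galactosidase that acts on raffinose, was the most abundant of the *RFS* genes in D. BnaA09g36810D was at 10.97, 20.2 and 17.1 FPKM in D + F, 77.0, 40.2 and 72.2 FPKM in D, and 2.30, 3.78 and 3.99 FPKM in CK. The groups did not overlap, with D highest and CK lowest. It was up-regulated in the drought contrast by 3.85 (SE 0.29, adjusted p = 0.000275) and in the combined contrast by 1.96 (SE 0.26, adjusted p = 0.00473). It was the only one of the 11 called in the fullerol contrast, where it was down-regulated at -1.89 (SE 0.31, adjusted p = 0.0471). That call was lost with any 1 library left out, at adjusted p-values from 0.0603 without D + F 1 to 0.143 without D 1.

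The other *RFS2* copy, BnaC08g28500D, was at 19.99, 37.6 and 38.5 FPKM in D + F, 122, 49.96 and 92.3 FPKM in D, and 4.11, 7.38 and 9.12 FPKM in CK. It was up-regulated in both comparisons with CK, and its log2 fold change of -1.40 in the fullerol contrast (SE 0.38) missed the threshold (adjusted p = 0.138) although the libraries did not overlap. The 4 *RFS6* identifiers, whose *Arabidopsis* counterpart is known from leaves kept in the dark, were all up-regulated in the drought contrast, by 0.85 to 2.92, and 3 of them in the combined contrast. Each of these 3 calls in the combined contrast was lost without CK 1, D + F 2 or D + F 3, at adjusted p-values of 0.0546 to 0.123. Each was kept in only 2 of the 6 fits with 1 library left out. The call of BnaA02g04780D in the drought contrast was lost without CK 2 (0.0505), D 1 (0.0567) or D 3 (0.0531). The smallest of these changes, that of BnaC09g37510D in D vs. CK (adjusted p = 0.0452), lost its call with any 1 library left out, at adjusted p-values from 0.0579 to 0.127.

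The 8 *RFS* identifiers summed to 58.5, 123 and 118 FPKM in D + F, 274, 130 and 209 FPKM in D, and 20.5, 32.7 and 40.8 FPKM in CK, without overlap between the groups. *RFS5* made up 12.6%, 7.88% and 7.53% of the sum in D + F, 1.10%, 3.15% and 0.981% in D, and 51.2%, 30.0% and 36.7% in CK. *RFS2* made up 47.0% to 52.9% in D + F, 69.6% to 78.5% in D and 31.3% to 34.2% in CK. The share on *RFS5* was therefore lowest in D, where the sum was highest and lay mostly on *RFS2*. The sum joins genes by their names and, with *RFS2* an α-galactosidase in *Arabidopsis*, is not a level of raffinose synthase.

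*GAA2* and *GAA* moved in opposite directions in the drought contrast. *GAA2* BnaCnng72110D was at 28.2, 14.8 and 9.38 FPKM in D + F, 15.6, 22.5 and 9.21 FPKM in D, and 33.7, 34.1 and 57.2 FPKM in CK, and it was down-regulated in D vs. CK, at -1.38 (SE 0.34, adjusted p = 0.0202), with adjusted p-values of 0.0522 without D 1 and 0.0544 without D 3. Between D + F and CK its change was -1.30 on the log2 scale (SE 0.39, adjusted p = 0.0596), and -1.69 (adjusted p = 0.0188) without D + F 1. *MIOX1* BnaAnng22250D, a myo-inositol oxygenase like *MIOX2*, was at 3.24, 2.75 and 5.64 FPKM in D + F, 3.21, 1.70 and 3.72 FPKM in D, and 0.414, 0.412 and 2.38 FPKM in CK. Its log2 fold changes of 0.997 in the drought contrast (SE 0.39, adjusted p = 0.0878) and 1.32 in the combined contrast (SE 0.39, adjusted p = 0.0553) missed the threshold. Without CK 3, the highest CK library, they were 1.42 (adjusted p = 0.00995) and 1.74 (adjusted p = 0.0106).

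The study's lists for the pathways around these genes, which it drew from the same libraries and which are not independent evidence, were taken as counts. Its galactose metabolism list for the combined contrast held 28 genes, of which 3 are among the 8 above and 9 among the 11. Of the 24 tested, 23 were DEGs in the drought contrast, 13 up-regulated and 10 down-regulated beside 12.3% and 19.7% of all genes, and 23 in the combined contrast, 14 up-regulated and 9 down-regulated beside 8.90% and 8.16%. For the combined contrast the count came to 8 without D + F 2, to 11 without D + F 3 or CK 2, and to 14 without CK 1. In the fullerol contrast, 2 were up-regulated and 1 was down-regulated, beside 0.808% and 0.338%, and with any 1 library left out none was called. Its shorter galactose metabolism list, for the fullerol contrast, held 6 genes, 3 of them members. Every gene on it passed the filter. In the drought contrast 6 were DEGs (2 up-regulated, 4 down-regulated), beside 12.3% and 19.7% of all genes. The combined contrast had 5 (2 and 3), beside 8.90% and 8.16%. In the fullerol contrast, for which the study drew the list, there were 3 (2 and 1), beside 0.808% and 0.338%. The 5 came to 3 without D + F 2, and the 3 came to 1 without D + F 1 and to 0 without any other library.

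The study's inositol phosphate metabolism list, drawn for the combined contrast, held 22 genes, of which 1 is among the 8 above and 1 among the 11. Its count in the combined contrast was thus favoured by how the list was drawn. Of the 22 genes, 19 passed the filter. In the drought contrast, 3 were up-regulated and 13 down-regulated, beside 12.3% and 19.7% of all genes, and in the combined contrast 4 were up-regulated and 11 down-regulated, beside 8.90% and 8.16%. The count of 15 in the combined contrast came to 5 without D + F 2, 6 without D + F 3 and 7 without CK 2. The fullerol contrast had 1 up-regulated and none down-regulated, beside 0.808% and 0.338%, and none was called with any 1 library left out. The median log2 fold change of the 19 was -1.06 in the drought contrast, -0.83 in the combined contrast and 0.23 in the fullerol contrast.

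The gene most like each member was sought among the other identifiers that the study names, by the smallest root mean square difference of log2(FPKM + 1), each gene centred on its mean over the 9 libraries. *GOLS3* BnaA09g48480D was nearest to *TSB2* BnaC04g34370D, a tryptophan synthase β-subunit gene, at a difference of 0.49, and that gene averaged 0.108 FPKM in D + F, 0.0759 FPKM in D and 26.5 FPKM in CK. *RFS5* BnaA04g10260D was nearest to *PGDH2* BnaA08g22970D (0.22), with means of 16.9, 7.39 and 25.6 FPKM in D + F, D and CK, and *RFS5* BnaC04g56100D to *BAM2* BnaA09g51890D (0.15), a β-amylase gene with means of 33.5, 18.2 and 33.9 FPKM. *AGAL1* was nearest to *SBE2.1* BnaC04g08890D (0.17), a starch branching enzyme gene, and *IMPL1* to *OTC* BnaA07g21750D (0.16), an ornithine carbamoyltransferase gene. *GAA* was nearest to *Acy1b* BnaCnng71090D (0.19), *GOLS3* BnaC08g50010D to *ACO3* BnaAnng22230D (0.33) and *MIOX2* to *SUS5* BnaA05g12940D (0.20). For *AGAL1* the second-nearest gene, *MUR2*, was almost as near (0.171 against 0.169). The same held for *IMPL1* with *PGDH1* (0.161 against 0.157) and for *MIOX2* with *SUS6* (0.207 against 0.203). The median difference over the 122 candidates of the tested members ran from 0.82 to 2.27, and these likenesses are descriptions across libraries of 3 groups.

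**Figure D4:**
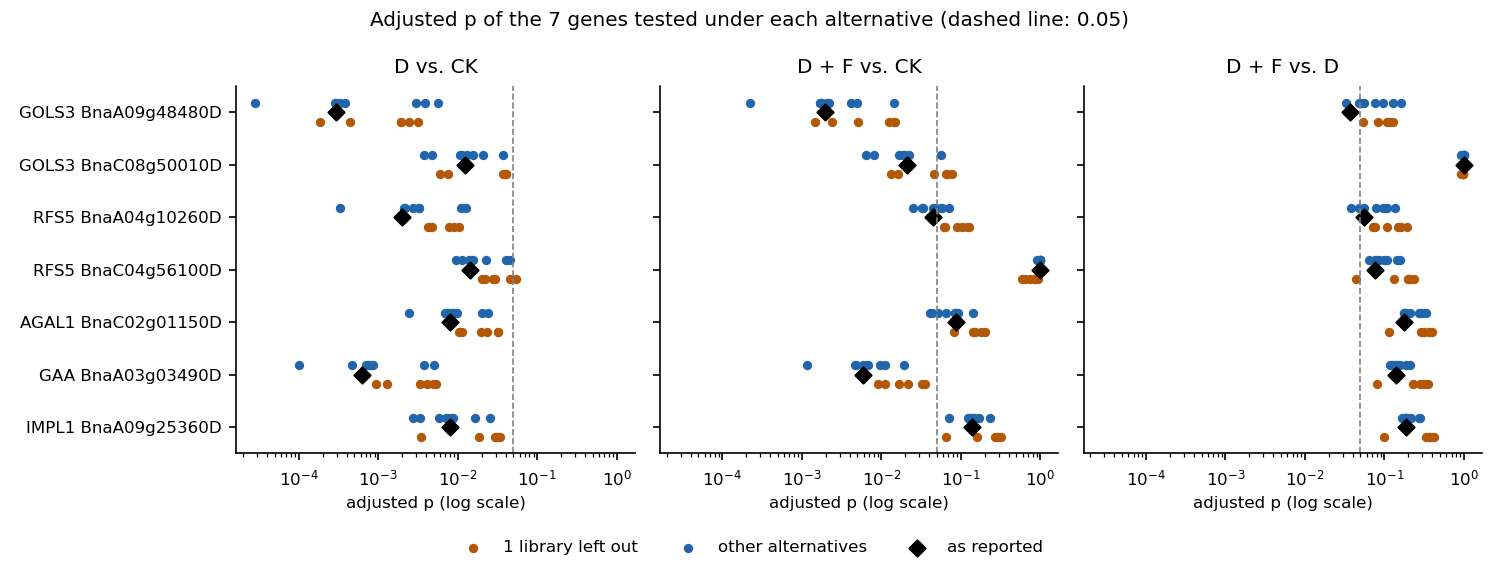
Adjusted p (horizontal axes, log scale) of the 7 genes tested in the drought, combined and fullerol contrasts (left to right), as reported (diamonds), with 1 library left out (lower points of each gene) and under the other alternatives (upper points); the dashed line marks 0.05. In the drought contrast the one point past the line is *RFS5* BnaC04g56100D at 0.0548, while in the fullerol contrast every gene has points past it.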

How the data were processed

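RNA-seq values of 9 leaf libraries were used, 3 each of D + F, D and CK, grouped by their labels. The authors removed low-quality reads, aligned the rest to the *B. napus* genome (TopHat), counted them per gene (HTSeq) and deposited FPKM for each library. The submitters' processing notes also name Bowtie 0.12.2 and a mouse build, which cannot apply to rapeseed. How reads that match several copies were counted is not given in the sources used here, nor is a sequencing batch.

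Read pairs, coding lengths and library totals were solved from the digits of the FPKM values, and 99.9985% of the values came out as whole reads. Each comparison was fitted to log2(FPKM + 1) of its 6 libraries with limma 3.58.1 (empirical Bayes with trend, two-sided) in R 4.3.3, for genes above 1 FPKM in at least 3 of 9 libraries, with Benjamini-Hochberg adjustment over the 50626 genes tested. Scripts were tested on simulated data. Read rates were compared with exact conditional 95% intervals, and summed copies with exact permutation tests in scipy 1.17.1. These cover counting error or the spread of 3 libraries only.

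The genes printed are the 8 members, 11 further identifiers that the study pairs with the same families, and the nearest gene of each member, for some also the second-nearest. Members and lists were chosen with earlier results of these data known. Tried as alternatives were no filter, a mean of at least 5 FPKM, a pseudocount of 0.1, median-of-ratios scaling (factors 0.900 to 1.13), quantile normalization, a replicate block, limma without trend, 1 fit on all libraries, voom on the solved reads, a minimum change of 2-fold, and each library left out in turn. Chosen after seeing the data were the read rates of *GOLS3* BnaA09g48480D with each library left out and the member counts without *GOLS3* BnaC08g50010D. None of the 8 members and 11 relatives occurs in the RefSeq gene table used here, and their positions and sequences were not used here.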

Additional observations from a re-analysis of the deposited data

How the results depend on the processing

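Of the 7 members called in D vs. CK, 4 remained testable and called at a mean of at least 5 FPKM, which left fewer genes tested, 5 at a minimum change of 2-fold (without *RFS5* BnaC04g56100D and *IMPL1*), and 6 to 7 were called with 1 library left out. In D + F vs. CK, where 4 were called, 4 members remained testable at a mean of at least 5 FPKM and 2 of them were called. *RFS5* BnaA04g10260D and *GOLS3* BnaC08g50010D were not tested there. In this contrast 3 were called without a filter and at a minimum change of 2-fold, 5 with median-of-ratios scaling, and 2 to 3 with 1 library left out. In D + F vs. D, the 1 call came to 0 without a filter, at a mean of at least 5 FPKM and with quantile normalization, and to 0 to 1 with 1 library left out. The gene called was *RFS5* BnaC04g56100D in place of *GOLS3* without D + F 1, and *RFS5* BnaA04g10260D in 1 fit on all libraries and with voom. The cause was not tested.

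The replicate numbers were also fitted as a block. Not every same-numbered pair deviated together (correlations of -0.291 to 0.058 in the drought contrast, 0.0532 to 0.306 in the combined contrast and -0.191 to 0.221 in the fullerol contrast), and the numbers were taken as names only. In the combined contrast every library correlated best with its own number, a hint from the data and not from the design. With the replicate block, 7, 3 and 0 members were called in the drought, combined and fullerol contrasts, and 11986, 11060 and 1 of all genes, against 16209, 8641 and 580 without it.

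Signs turned only for log2 fold changes that were not called. *RFS5* BnaC04g56100D in D + F vs. CK was at 0.0051 with voom, and at -0.16 to 0.19 with 1 library left out. In the fullerol contrast, median-of-ratios scaling and quantile normalization gave -0.00072 and -0.011 for *GOLS3* BnaC08g50010D, -0.055 and -0.036 for *GAA2*, and -0.039 and -0.10 for *GOLS1*. With 1 library left out, the fullerol contrast ran from -0.018 to 0.041 for *GOLS3* BnaC08g50010D, -0.31 to 0.43 for *GAA2*, -0.13 to 0.18 for *GOLS1* and -0.82 to 0.13 for *GOLS2* BnaA09g15290D. For *RFS6* it ran from -0.27 to 0.30 (BnaA02g04780D), -0.83 to 0.070 (BnaA10g15160D), -0.47 to 0.13 (BnaC09g37510D) and -0.29 to 0.16 (BnaC09g37530D). The summed copies kept their direction with median-of-ratios scaling and with each library left out. Genes with 0 to 3 read pairs in a library limit what can be compared, as for *MIOX2* and the C copy of *GOLS3* in D + F and D.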
